A study of Mus musculus with 84 samples.

Results

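Collagens are the triple-helical proteins that carry the tensile load of connective tissue and form the sheet-like scaffold of basement membranes. All 44 mouse genes whose symbol has the form Col, number, a, number were taken, out of 49671 genes in the RNA-seq count table. That rule reads symbols and no measured value, but it was chosen with earlier results of these data known. The 44 genes comprised 11 fibrillar collagens, 6 basement membrane collagens (type IV), 6 beaded filament collagens (type VI), 9 fibril-associated collagens, 2 multiplexins, 4 network and anchoring collagens and 6 transmembrane and other collagens.

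The libraries came from 12 mice in 4 groups of 3: ob/ob on a high-fat diet (HFD), ob/ob on a normal diet (ND), WT on HFD and WT on ND. Ob/ob mice lack functional leptin, the adipocyte hormone that curbs appetite, and become obese on ordinary food. Hypothalamus, hippocampus, heart, aorta, liver, epididymal fat and skeletal muscle of each mouse were sequenced, which gave 84 libraries, and the mice were dissected after 20 weeks, a term that the labels do not tie to age or to time on the diet. Every RNA came from whole tissue, in which fewer cells of a type and less RNA per cell cannot be told apart, and ob/ob is a whole-body loss of leptin, not a change in any single tissue.

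Fibrillar chains such as Col1a1, Col1a2 and Col3a1 are made mainly by fibroblasts and related cells. They are hydroxylated and folded in the endoplasmic reticulum with the help of the chaperone Serpinh1, then trimmed and cross-linked outside the cell. Type IV chains stay untrimmed and join into a net that carries laminin, nidogen and perlecan beneath endothelium, epithelium, muscle fibres and adipocytes. Type VI chains (Col6a1, Col6a2, Col6a3 and others) form fine beaded filaments around cells, and multiplexins (Col15a1, Col18a1) are collagens at the edge of basement membranes.

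The 6 type IV genes lie as 3 head-to-head pairs, each pair with its starts facing apart from a shared stretch (Ensembl gene models used for counting, GRCm38). Col4a1 (8:11198423-11312826, minus strand) and Col4a2 (8:11312805-11449287, plus strand) overlap by 22 bases of their first exons, the starts of Col4a6 and Col4a5 on chromosome X are 1308 bases apart, and those of Col4a4 and Col4a3 on chromosome 1 have 71 bases between them. That stretch is shown because 1 short sequence lies before the starts of both genes. Both were lower in aorta and fat, though both aorta calls between genotypes on ND were lost without WT ND mouse 2. The part of the stretch in these differences was not tested. The stretch is chr1:82586850-82586920, read on the plus strand, and holds none of the 3 motifs searched.

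Col4a3 and Col4a4: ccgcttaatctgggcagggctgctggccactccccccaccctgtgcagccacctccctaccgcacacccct

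For 3 members on which results below turn, the 250 bases before the start are shown on the gene's own strand, with motif matches in capitals. Col3a1 (chr1:45311288-45311537, plus strand) and Col6a3 (chr1:90843972-90844221, minus strand) moved in heart and fat, and Col5a3 (chr9:20815068-20815317, minus strand) had the highest called log2 fold change in aorta on ND.

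Col3a1: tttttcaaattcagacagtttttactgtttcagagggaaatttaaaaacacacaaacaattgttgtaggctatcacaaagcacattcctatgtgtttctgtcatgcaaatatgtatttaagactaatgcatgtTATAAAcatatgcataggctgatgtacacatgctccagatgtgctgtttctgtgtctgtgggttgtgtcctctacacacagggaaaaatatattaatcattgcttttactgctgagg

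Col6a3: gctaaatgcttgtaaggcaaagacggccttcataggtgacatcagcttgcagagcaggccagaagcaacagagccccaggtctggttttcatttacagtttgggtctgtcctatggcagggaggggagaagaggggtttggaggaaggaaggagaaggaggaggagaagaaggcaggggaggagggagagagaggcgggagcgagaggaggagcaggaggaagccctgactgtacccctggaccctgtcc

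Col5a3: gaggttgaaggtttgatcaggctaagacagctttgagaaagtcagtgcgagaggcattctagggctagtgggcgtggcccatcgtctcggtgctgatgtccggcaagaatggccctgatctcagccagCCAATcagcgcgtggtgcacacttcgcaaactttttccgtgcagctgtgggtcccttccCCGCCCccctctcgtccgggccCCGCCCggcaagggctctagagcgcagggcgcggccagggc

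The Col3a1 stretch holds a TATAAA match. The Col5a3 stretch holds a CCAAT match and a pair of GC boxes written as CCGCCC, the reverse complement of GGGCGG. The Col6a3 stretch holds none of these. RefSeq promoter windows were found for 35 of the 44 members, and each motif was searched on both strands. GGGCGG was found in 21 of the 35 members (60%) against 32.7% of 32851 windows of all genes, CCAAT in 13 (37.1%) against 33.8%, and TATAAA in 5 (14.3%) against 12.4%. A member with several windows counted once if any of them matched, so the shares of members and of windows are not like for like, and a match describes letters, not a bound site.

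Library totals ran from 10499528 to 17040790 assigned reads, and all 84 libraries lay closest to their labelled tissue. Levels are given as FPKM, reads per gene scaled to merged exon length and library size, with libraries adjusted by TMM within a tissue, so levels of different tissues are set side by side only as a description. A gene was called when its adjusted p in edgeR's quasi-likelihood test was below 0.05 over all genes tested in that tissue. Several libraries stood apart. WT ND mouse 2 of the aorta carried the highest fibroblast-type collagens, ob/ob HFD mouse 2 of the liver the highest Col1a1, ob/ob HFD mice 1 and 2 the lowest and highest collagens of their muscle group, and WT ND mouse 3 of the fat the highest Col1a1 and the highest summed epididymis and testis markers. Counts of called members that moved by over 1.5 times without one of them are also given without it.

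The collagen genes took the largest share of reads in fat and the smallest in the brain. Their median share over 12 libraries was 1.17% in fat, 0.396% in muscle, 0.242% in aorta, 0.109% in liver, 0.107% in heart, 0.0484% in hypothalamus and 0.0405% in hippocampus. The range over libraries was widest in muscle, from 0.122% to 1.35%, and it was 0.974% to 1.43% in fat. By mean FPKM over 12 libraries, 22 of the 44 members were highest in fat, 7 in hypothalamus and 6 in hippocampus. A further 4 were highest in muscle, 2 in aorta, 2 in liver and 1 in heart. The members highest in the brain were Col2a1, Col11a1, Col9a2, Col23a1, Col25a1, Col26a1 and Col6a4 in hypothalamus, and Col9a3, Col11a2, Col8a2, Col17a1, Col19a1 and Col20a1 in hippocampus.

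Col3a1, the fibrillar chain of distensible tissues, had a median of 185 FPKM in fat, 90.5 in muscle, 35.6 in aorta, 14.7 in heart, 2.75 in liver, 0.293 in hippocampus and 0.203 in hypothalamus. Over libraries its range in fat (149 to 431 FPKM) met that in muscle (37.8 to 187 FPKM), and the ranges of muscle and aorta (26.8 to 93.6 FPKM) also met. Only the brain regions lay below 1 FPKM for this gene in every library. Col4a1, the most widely used type IV chain, had medians of 262 FPKM in fat, 91.5 in muscle, 60.1 in aorta, 32.6 in heart, 7.28 in liver, 3.93 in hippocampus and 3.78 in hypothalamus, so it fell off less steeply towards the brain. Its ranges in hippocampus (3.36 to 5.77 FPKM) and hypothalamus (3.23 to 4.78 FPKM) overlapped almost wholly.

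Single members broke this order. Col18a1, whose C-terminal fragment is endostatin, had a median of 123 FPKM in liver (97.3 to 151) and 52.8 FPKM in fat (38.7 to 67.6), with no overlap between the tissues. Col25a1, a transmembrane collagen of neurons, had a median of 12.8 FPKM in hypothalamus (10.3 to 15) and 5.43 FPKM in hippocampus (4.99 to 8.43), and its highest value in any library of the other 5 tissues was 0.0418 FPKM. Col10a1, the collagen of hypertrophic cartilage, stayed below the count filter in all 7 tissues.

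**Figure D1:**
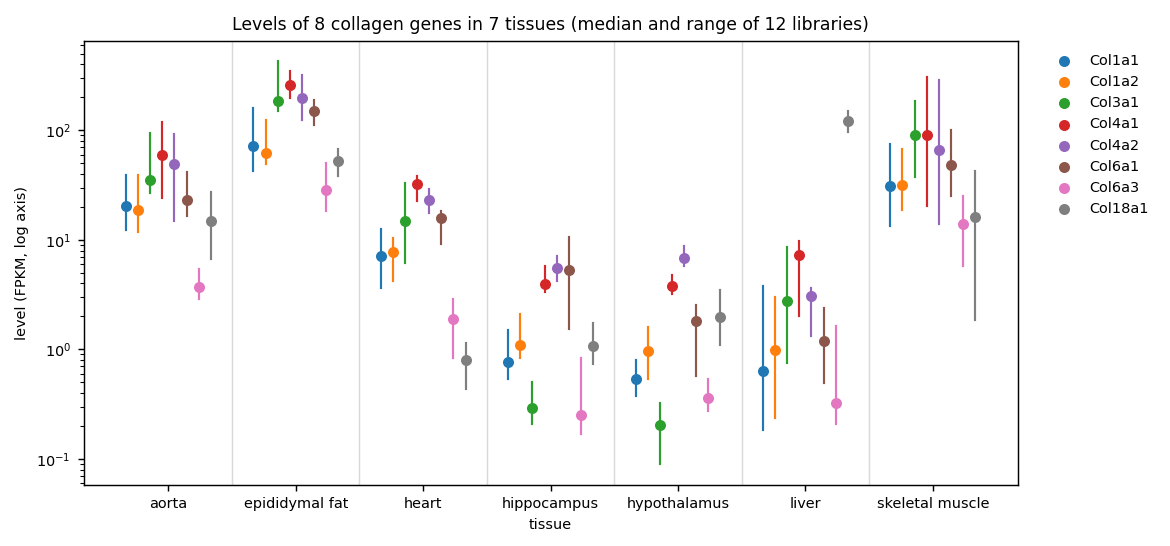
Levels of 8 collagen genes in the 7 tissues, in FPKM on a log axis; each point is the median and each bar the lowest to highest of 12 libraries. Col3a1 ran from 185 FPKM in fat down to 0.203 in hypothalamus, whereas Col18a1 was highest in liver, at 123 FPKM.

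The filter on low counts left 31 members to be tested in aorta, 32 in fat, 29 in heart, 40 in hippocampus, 42 in hypothalamus, 20 in liver and 36 in muscle. The direction of the ob/ob difference was not shared by the tissues. Averaged over both diets, 12 members were higher in ob/ob aorta and 7 lower, where 20.3% of all genes were higher and 19.3% lower. In fat 4 were higher and 9 lower, against 20.6% and 15.2% of all genes, and in heart 1 was higher and 16 lower, against 14.6% and 15.5%. In liver 2 were higher and 3 lower, against 22.1% and 20.7%, and in muscle 18 were higher and 4 lower, against 27.8% and 20.8%. Among these calls, Col4a1 was higher in ob/ob than WT in aorta, fat, liver and muscle and lower in heart, and Col4a2 was higher in those same 4 tissues. Col3a1 was lower in heart and fat and higher in muscle. The comparisons on ND and on HFD use different mice, but each ob/ob or WT group also enters a diet comparison, so those share samples and are given side by side only.

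**Figure D2:**
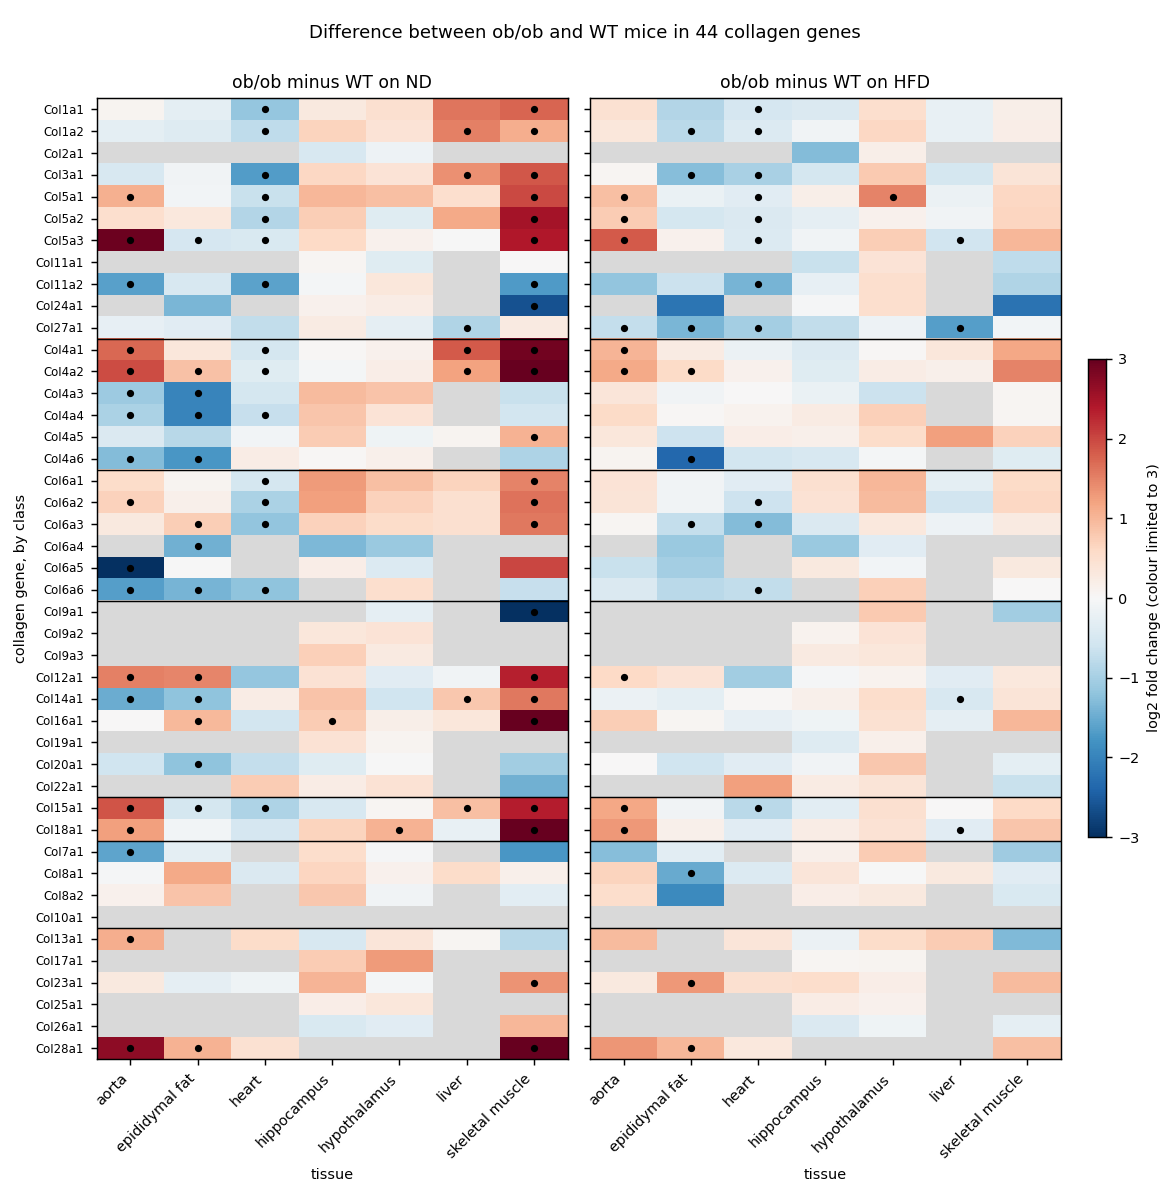
Log2 fold change of ob/ob over WT for the 44 collagen genes (rows) in 7 tissues (columns), on ND and on HFD; the colour scale stops at 3 in either direction, black dots mark an adjusted p below 0.05 and grey squares genes under the count filter. The heart columns hold 15 dots on ND and 12 on HFD, all for lower levels, and muscle holds 22 dots on ND and none on HFD.

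In the heart, collagen genes were lower in ob/ob than in WT mice on either diet, with the fibrillar and type VI chains leading. On ND 15 of 29 tested members were lower and 0 higher, where 6.48% of all genes were lower and 6.26% higher. On HFD 12 were lower and 0 higher, against 8.36% lower and 8.82% higher over all genes. The median log2 fold change of the tested members was -0.56 on ND and -0.35 on HFD, and that of all genes was -0.01 on both. The 11 members lower on both diets were 73.3% of the ND calls and 91.7% of the HFD calls. The same overlap over all genes was not taken, so these shares are not set apart as a trait of collagens. The HFD count was 5 without ob/ob HFD mouse 1, 6 without ob/ob HFD mouse 2 and 4 without WT HFD mouse 1.

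The fibrillar chains fell almost as a block: 7 of 8 tested were lower on ND and 8 of 8 on HFD. Col3a1 stood at 8.97, 6.10 and 8.18 FPKM in ob/ob ND hearts, against 20.5, 33.4 and 20.2 FPKM in WT ND hearts. Among HFD mice it was 8.85, 9.13 and 12.3 FPKM in ob/ob hearts and 23.7, 17.1 and 18.9 FPKM in WT hearts. All 6 ob/ob hearts lay below all 6 WT hearts. The log2 fold change was -1.67 ± 0.19 (SE, edgeR adjusted p = 7.42e-05) on ND and -0.98 ± 0.19 (edgeR adjusted p = 0.00252) on HFD, with 3 mice in each group.

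Col1a1, the main chain of type I collagen, was 5.16, 3.62 and 5.49 FPKM in ob/ob ND hearts and 9.96, 12.5 and 9.48 FPKM in WT ND hearts. On HFD it was 4.95, 5.63 and 6.84 FPKM in ob/ob hearts against 9.39, 7.85 and 7.39 FPKM in WT hearts. The genotypes again did not overlap, although the HFD groups nearly touched. The log2 fold change was -1.16 ± 0.15 (edgeR adjusted p = 0.000186) on ND and -0.50 ± 0.15 (edgeR adjusted p = 0.0308) on HFD, and the HFD call was lost without ob/ob HFD mouse 1 or 2 or WT HFD mouse 1 or 2. Col1a2, its partner chain, fell by 0.75 on the log2 scale on ND and by 0.42 on HFD, and Col5a2, which seeds type I fibrils, by 0.89 and 0.44. On HFD the Col5a2 call ended without ob/ob HFD mouse 1 or 2 or WT HFD mouse 1, and the Col1a2 call without 5 of the 12 libraries in turn. Col27a1, a fibrillar chain of cartilage and other stroma, had -1.01 ± 0.29 on HFD (edgeR adjusted p = 0.0253), a call lost without any of 4 libraries (ob/ob HFD mice 1 and 3, WT HFD mice 1 and 3).

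Type VI followed. Col6a3, the long chain that completes the type VI trimer, was 1.01, 0.840 and 1.27 FPKM in ob/ob ND hearts and 2.5, 2.39 and 2.27 FPKM in WT ND hearts. Among HFD mice it was 0.943, 1.04 and 1.54 FPKM in ob/ob hearts and 2.91, 2.85 and 2.86 FPKM in WT hearts. The WT hearts were tightly grouped and every ob/ob heart was lower. Log2 fold changes were -1.19 ± 0.15 (edgeR adjusted p = 0.00017) on ND and -1.29 ± 0.15 (edgeR adjusted p = 5.19e-05) on HFD, and no single library ended either call. All 4 tested type VI chains were lower on ND and 3 of 4 on HFD; Col6a6 fell by 1.2 on ND and by 0.73 on HFD on the log2 scale, the HFD call being lost without WT HFD mouse 1.

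The type IV chains moved less. On ND 3 of 6 were lower and on HFD 0 of 6, with 0 at an unadjusted p below 0.05 on HFD. Col4a1 was 27, 22.6 and 24.8 FPKM in ob/ob ND hearts and 34.8, 34.3 and 38.3 FPKM in WT ND hearts, a log2 fold change of -0.53 ± 0.13 (edgeR adjusted p = 0.0166) that was lost without ob/ob ND mouse 2 or WT ND mouse 3. On HFD it was 23.7, 30.9 and 34.2 FPKM in ob/ob hearts and 36.2, 37.5 and 26.9 FPKM in WT hearts, and the groups overlapped. Col15a1, the multiplexin of capillary and muscle basement membranes, was 6.02, 3.98 and 7.48 FPKM in ob/ob ND hearts and 11.7, 10.4 and 11.5 FPKM in WT ND hearts, without overlap, with -0.93 ± 0.19 (edgeR adjusted p = 0.00491) on ND and -0.82 ± 0.19 (edgeR adjusted p = 0.00842) on HFD.

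**Figure D3:**
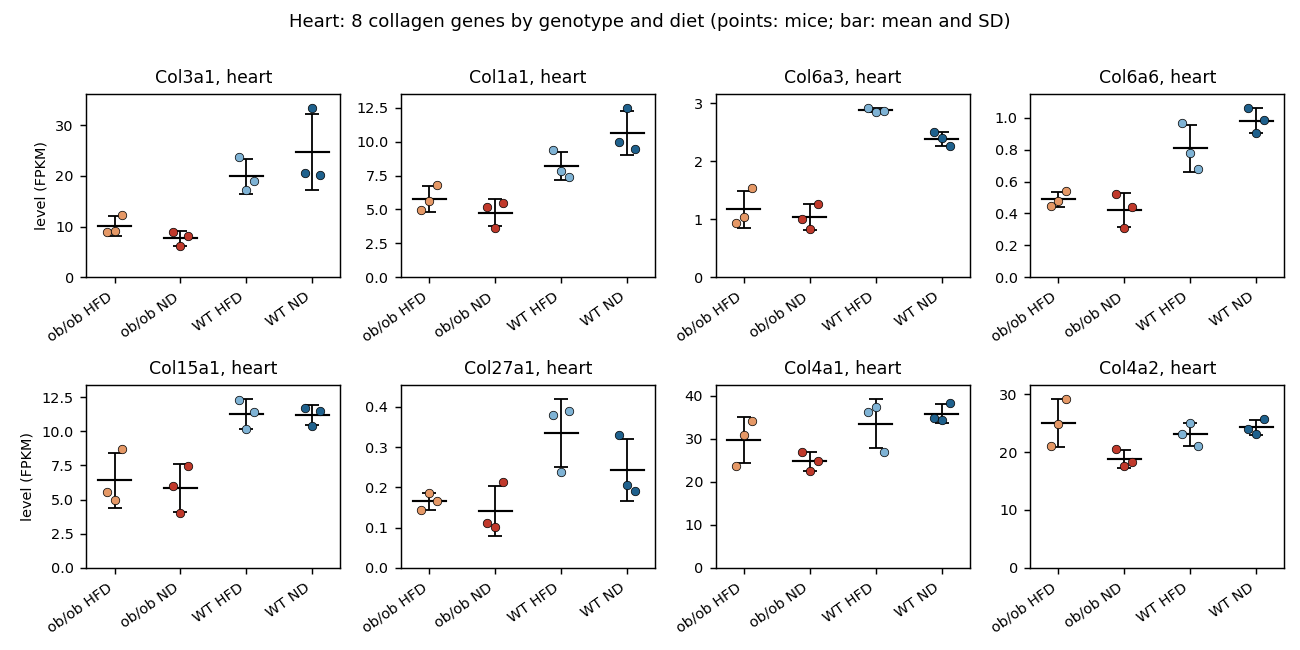
FPKM of 8 collagen genes in the heart by group; points are mice and bars the mean ± SD of 3. Col3a1 lay between 6.10 and 12.3 FPKM in ob/ob hearts and between 17.1 and 33.4 in WT hearts, whereas the HFD groups of Col4a1 and Col4a2 overlapped.

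Of the 26 genes listed as collagen synthesis enzymes and chaperones, 24 were tested in heart. On ND 6 were lower and 0 higher, and on HFD 5 were lower and 2 higher. Over all genes 6.48% were lower and 6.26% higher on ND, and 8.36% and 8.82% on HFD. Serpinh1, the collagen-specific chaperone, averaged 34.9 FPKM in ob/ob ND and 74.7 FPKM in WT ND hearts, a log2 fold change of -1.10 ± 0.12 (edgeR adjusted p = 4.60e-05), and -1.2 ± 0.12 on HFD. P4ha1, a prolyl hydroxylase, fell by 0.74 on ND and 0.89 on HFD on the log2 scale. Prelp, a small proteoglycan at the fibril surface, fell by 1.06 and 1.21, but only 1 of 9 tested proteoglycans was lower on ND and 3 on HFD. Of 7 tested collagen receptors, 4 were lower on ND, among them Mrc2, which takes collagen up for breakdown (log2 fold change -0.57), and Itga11, a fibroblast collagen integrin (-0.96). Ccn2, a growth factor of the TGF-beta list, went the other way, with 1.17 on ND and 1.32 on HFD.

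Summed fibroblast markers in heart ran from 1091 to 1325 FPKM in ob/ob ND and 1280 to 1443 FPKM in ob/ob HFD hearts, against 1199 to 1357 FPKM in WT ND and 1448 to 1735 FPKM in WT HFD hearts. Of the 10 fibroblast markers 2 were lower on ND and 4 on HFD, with 0 higher. Over all genes 6.48% were lower on ND and 8.36% on HFD. Macrophage markers summed to 194 to 279 and 178 to 270 FPKM in the ob/ob groups on ND and HFD and to 291 to 381 and 303 to 365 FPKM in the WT groups, with 4 and 3 of 10 lower. Endothelial markers overlapped (178 to 226 and 190 to 209 FPKM in ob/ob, 192 to 207 and 179 to 225 FPKM in WT), and no marker of these lists was at 0. The part of these cells in the collagen differences was not tested. Diet alone gave 0 called members in either genotype, with 1 (WT) and 5 (ob/ob) at an unadjusted p below 0.05 and 0 and 1 by DESeq2, where 0.256% and 0.0219% of all genes were called. The interaction gave 0, with 5 at an unadjusted p below 0.05 and 0 by DESeq2, where 0% of all genes were called.

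In the aorta the type IV pair and Col5a3 were higher in ob/ob mice while several low-level chains were lower. On ND 10 of 31 tested members were higher and 8 lower, where 15.9% of all genes were higher and 15.9% lower. On HFD 8 were higher and 1 lower, against 8.34% and 7.84% of all genes. The 7 members higher on both diets (Col4a1, Col4a2, Col5a1, Col5a3, Col12a1, Col15a1 and Col18a1) were 70% of the higher ND calls and 87.5% of the higher HFD calls. Here too the overlap over all genes was not taken. The HFD count was 5 without WT HFD mouse 1 and also 5 without WT HFD mouse 3.

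Col4a1 was 82.8, 117 and 120 FPKM in ob/ob ND aortas and 37.3, 24.3 and 35.1 FPKM in WT ND aortas. Among HFD mice it was 70.9, 99.3 and 87.2 FPKM in ob/ob and 39, 39.1 and 49.3 FPKM in WT aortas. Every ob/ob aorta exceeded every WT aorta. The log2 fold change was 1.72 ± 0.21 (edgeR adjusted p = 0.000125) on ND and 1.01 ± 0.20 (edgeR adjusted p = 0.0065) on HFD. Col4a2, the chain it assembles with, had 1.95 ± 0.22 (edgeR adjusted p = 6.98e-05) and 1.13 ± 0.21 (edgeR adjusted p = 0.00455).

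Col5a3, a minor fibrillar chain abundant in fat, was 19.3, 25.1 and 35.6 FPKM in ob/ob ND aortas and 3.42, 4.05 and 2.98 FPKM in WT ND aortas. On HFD it was 16.8, 19.4 and 28 FPKM in ob/ob and 5.61, 6.01 and 6.35 FPKM in WT aortas. The genotypes stood well apart on both diets. Its log2 fold change of 2.94 ± 0.24 (edgeR adjusted p = 7.92e-06) on ND was the highest among the called members there, and it was 1.84 ± 0.23 (edgeR adjusted p = 0.00057) on HFD. The main fibrillar chains did not pass: Col3a1 was 31.2, 37.9 and 48.3 FPKM in ob/ob ND and 35.8, 93.6 and 35.7 FPKM in WT ND aortas, the high value being that of WT ND mouse 2.

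The lower members on ND were Col6a5, Col6a6, Col7a1, Col11a2, Col14a1, Col4a3, Col4a4 and Col4a6. Col14a1, a fibril-associated collagen of the adventitia, was 7.34, 5.78 and 8 FPKM in ob/ob ND and 13.6, 31.9 and 13.9 FPKM in WT ND aortas. The groups did not overlap, and WT ND mouse 2 was again far above the others of its group. The log2 fold change was -1.49 ± 0.37 (edgeR adjusted p = 0.00938), and the call held without that library. Col6a5 had -3.10 ± 0.78 with a WT ND range of 0.418 to 3.89 FPKM that the same mouse set; without that mouse it was -1.20 and still called. The Col4a3 (-1.08), Col4a4 (-0.95) and Col6a6 (-1.66) calls were lost without it, as they were without ob/ob ND mouse 2 or 3 for Col4a3, ob/ob ND mouse 3 or WT ND mouse 3 for Col4a4, and ob/ob ND mouse 1 or 2 for Col6a6.

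In aorta diet gave 5 calls in WT mice and 0 in ob/ob mice. In WT mice 4 type IV members were lower on HFD than on ND and 1 member was higher, where 2.07% of all genes were lower and 2.13% higher. Log2 fold changes were -1.48 for Col4a6, -1.41 for Col4a4, -1.32 for Col4a3 and -0.99 for Col4a5, and 0.81 for Col12a1, a fibril-associated chain of tendon and fascia. The summed FPKM of all type IV genes, which also holds Col4a1 and Col4a2, went the other way in WT aortas. It was 77.2 ± 11.3 on HFD and 59.8 ± 10.6 on ND (mean ± SD), without overlap. In all 20 members had an unadjusted p below 0.05, and DESeq2 called 10, 2 higher and 8 lower. The edgeR count of 5 was 10 without WT ND mouse 1, 2 without WT ND mouse 2, 0 without WT HFD mouse 1 and 1 without WT HFD mouse 3. In ob/ob aortas 0 were called, with 1 at an unadjusted p below 0.05 and 0 by DESeq2, where 0% of all genes were called. The interaction of diet and genotype gave 0 calls, with 11 at an unadjusted p below 0.05 and 4 by DESeq2, where 0.427% of all genes were called.

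Of 14 tested basement membrane partners in aorta 8 were higher on ND and 8 on HFD, with 0 lower. Over all genes 15.9% were higher and 15.9% lower on ND, and 8.34% and 7.84% on HFD. Nid1, nidogen, averaged 54.1 FPKM in ob/ob ND and 21.4 FPKM in WT ND aortas (log2 fold change 1.34), and Hspg2, perlecan, averaged 21.9 and 10.3 FPKM (1.09). Mrc2 had 1.76 on both diets and Mmp12, the macrophage elastase, 5.29 on ND.

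These aorta libraries also held much fat RNA. Brown adipocyte markers summed to 6227 to 9899 FPKM in ob/ob ND and 7916 to 10299 FPKM in ob/ob HFD aortas, against 14529 to 19197 FPKM in WT ND and 15135 to 17392 FPKM in WT HFD aortas, with 5 of 8 lower and 2 higher on ND. Smooth muscle markers, which define the vessel wall, summed to only 170 to 302 and 159 to 216 FPKM in ob/ob on ND and HFD and to 214 to 576 and 121 to 212 FPKM in WT, with 4 of 8 lower on ND. Cardiomyocyte markers summed to 2.64 to 34.2 FPKM in ob/ob ND and 3.84 to 130 FPKM in ob/ob HFD aortas, against 181 to 538 FPKM in WT ND and 2.75 to 90.6 FPKM in WT HFD aortas. Beside these marker counts, 15.9% of all genes were higher and 15.9% lower on ND. The part of these cell types in the collagen differences was not tested.

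In epididymal fat Col3a1, Col6a3 and Col8a1 were higher on HFD in WT mice, and the interaction test placed their diet difference lower in ob/ob than in WT mice. In WT fat 6 of 32 tested members were higher and 7 lower on HFD than on ND, where 28.6% of all genes were higher and 30.3% lower, and neither share of members exceeded that of all genes. In ob/ob fat 0 were called, with 3 at an unadjusted p below 0.05 and 0 by DESeq2, where 0% of all genes were called. The interaction was called for 8 members, 1 higher and 7 lower, against 19.4% and 20.7% of all genes. Over both directions that share of members did not exceed the share of all genes.

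Col3a1 was 150, 192 and 161 FPKM in ob/ob HFD and 254, 149 and 176 FPKM in ob/ob ND fat. In WT it was 399, 431 and 378 FPKM on HFD and 166, 177 and 280 FPKM on ND. The WT HFD group lay above all 9 other libraries. Its log2 fold change of HFD over ND in WT was 0.95 ± 0.24 (edgeR adjusted p = 0.00522), and the interaction was -1.16 ± 0.34 (edgeR adjusted p = 0.0178). Set against WT on HFD, ob/ob HFD fat had -1.27 ± 0.24 (edgeR adjusted p = 0.00981), a call lost without ob/ob HFD mouse 1.

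Col6a3, whose cleaved fragment is endotrophin, was 24.2, 28.6 and 28.1 FPKM in ob/ob HFD and 39.4, 25.4 and 31 FPKM in ob/ob ND fat. In WT it was 49.95, 35.9 and 46.8 FPKM on HFD and 18.2, 18.4 and 20.5 FPKM on ND. The WT groups did not overlap, and the ob/ob libraries lay between them but for ob/ob ND mouse 1, which fell within the WT HFD range. The log2 fold change of HFD over ND in WT was 1.22 ± 0.17 (edgeR adjusted p = 0.000126) and the interaction -1.46 ± 0.24 (edgeR adjusted p = 0.00086), neither of which any single library ended. Ob/ob over WT was 0.75 ± 0.17 (edgeR adjusted p = 0.00386) on ND and -0.71 ± 0.17 (edgeR adjusted p = 0.0192) on HFD, the HFD call being lost without ob/ob HFD mouse 1 or 3 or WT HFD mouse 1.

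Col8a1, a short-chain network collagen of vessels, was 4.40, 10.4 and 5.28 FPKM in ob/ob HFD and 9.54, 6.35 and 5.22 FPKM in ob/ob ND fat. In WT it was 25.9, 24.7 and 6.86 FPKM on HFD and 2.89, 2.58 and 4.09 FPKM on ND. WT HFD mouse 3 lay far below the other WT HFD mice yet above the WT ND group. HFD over ND in WT was 2.59 ± 0.49 (edgeR adjusted p = 0.00098) and the interaction -2.66 ± 0.67 (edgeR adjusted p = 0.00937). The other members with a called interaction were Col5a2 (-0.83), Col8a2 (-2.77), Col12a1 (-1.06), Col27a1 (-1.04) and Col23a1 (1.57). Their calls ended without 4 to 7 of the 12 libraries in turn. The interaction count was 4 without ob/ob HFD mouse 1, 4 without WT ND mouse 1, 3 without WT ND mouse 2, 13 without WT ND mouse 3, 5 without WT HFD mouse 1 and 5 without WT HFD mouse 2. The diet count in WT was 20 without WT ND mouse 3, 13 of them higher.

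The members lower on HFD in WT fat were led by Col4a4 and Col4a3. Col4a4 was 0.0361, 0.148 and 0.136 FPKM on HFD and 0.587, 0.713 and 1.33 FPKM on ND in WT, a log2 fold change of -3.02 ± 0.57 (edgeR adjusted p = 0.000925), and Col4a3 had -2.80. Col14a1 was 4.98, 11.9 and 8.01 FPKM on HFD and 22.6, 18.3 and 34 FPKM on ND in WT, with -1.59 ± 0.33 (edgeR adjusted p = 0.00162). In each case every WT HFD library lay below every WT ND library. Col23a1 (-1.77), Col5a3 (-0.78), Col15a1 (-0.61) and Col18a1 (-0.42) were also lower, the Col18a1 call ending without WT ND mouse 2 or WT HFD mouse 2.

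Between genotypes on ND, 5 members were higher in ob/ob fat and 9 lower, where 25.2% of all genes were higher and 23% lower. Col4a2 was 232, 270 and 319 FPKM in ob/ob ND and 164, 156 and 123 FPKM in WT ND fat, without overlap and with a log2 fold change of 0.89 ± 0.17 (edgeR adjusted p = 0.00163). Its partner Col4a1, at 281, 308 and 346 FPKM in ob/ob ND and 268, 256 and 215 FPKM in WT ND fat, did not pass on ND. Col12a1 had 1.47 ± 0.25 (edgeR adjusted p = 0.000665), with 2.81, 3.49 and 5.33 FPKM in ob/ob ND and 1.31, 1.42 and 1.48 FPKM in WT ND fat. The lower members included Col4a4 (-1.99), Col4a3 (-1.97), Col4a6 (-1.74), Col6a6 (-1.39) and Col14a1 (-1.2); Col4a3, Col4a6 and Col6a6 each lost their call without ob/ob ND mouse 1 or 3 or WT ND mouse 3. The ND count of 14 was 8 without ob/ob ND mouse 1 and 9 without ob/ob ND mouse 3.

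On HFD, 3 members were higher in ob/ob than WT fat and 6 lower, where 10.1% and 7.5% of all genes were. Col27a1 had -1.38 ± 0.25 (edgeR adjusted p = 0.00888), Col4a6 -2.36 and Col8a1 -1.52. Higher were Col4a2 (0.58), Col28a1 (1) and Col23a1 (1.29), each lost without 5 or more of the 12 libraries in turn, as were the Col4a6 and Col8a1 calls. The count of 9 was 1 without ob/ob HFD mouse 1, 2 without ob/ob HFD mouse 3, 2 without WT HFD mouse 1 and 3 without WT HFD mouse 2.

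Among the collagen-processing genes of WT fat, 11 of 25 tested synthesis genes were higher and 4 lower on HFD, where 28.6% of all genes were higher and 30.3% lower. The higher ones included Colgalt1, a collagen galactosyltransferase (1.39), Plod2, a lysyl hydroxylase (1.32), and Pcolce, an enhancer of propeptide removal (1.18). Of 11 proteases and inhibitors 7 were higher and 3 lower. Ctsk, the collagenolytic cathepsin, averaged 413 FPKM on HFD and 23.4 FPKM on ND (log2 fold change 4.14). Mmp13, a collagenase, had 7.4, from a low WT ND average of 0.0402 FPKM. Among the lower ones, Mmp9 averaged 0.607 FPKM on HFD and 8.43 FPKM on ND (-3.80). Of 14 basement membrane partners 10 were lower and 0 higher, with Nid1 at -1.49 and Lama4, a laminin chain of adipocytes and vessels, at -1.44.

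Cell type markers of fat moved in the same comparisons. Adipocyte markers summed to 5182 to 6660 FPKM in ob/ob HFD and 4629 to 6720 FPKM in ob/ob ND fat, against 1284 to 4225 FPKM in WT HFD and 16981 to 22380 FPKM in WT ND fat. In WT 9 of 10 were lower on HFD. Beside the marker counts of this comparison, 28.6% of all genes were higher and 30.3% lower. Macrophage markers summed to 4362 to 6889 FPKM in ob/ob HFD and 3354 to 6164 FPKM in ob/ob ND fat, against 5022 to 11097 FPKM in WT HFD and 1075 to 1177 FPKM in WT ND fat, 9 of 10 being higher on HFD in WT. All 12 endothelial markers were lower on HFD in WT (62.1 to 158 FPKM summed on HFD, 222 to 293 FPKM on ND), and fibroblast markers summed to 2095 to 3875 FPKM on HFD and 5888 to 7764 FPKM on ND in WT, with 3 of 10 lower and 1 higher. None of these markers was at 0, and their part in the collagen differences was not tested.

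In the liver, 11 collagen genes, Col1a1, Col3a1 and Col4a1 among them, were higher on HFD than on ND in WT mice. In WT these 11 of 20 tested members were higher on HFD than on ND and 0 lower, where 12% of all genes were higher and 9.87% lower, and the members' median log2 fold change was 1.25. In ob/ob livers 0 were called, with 8 at an unadjusted p below 0.05 and 1 by DESeq2, where 0.913% of all genes were called. Without ob/ob HFD mouse 2 that count was 1, lower. Col18a1, by far the highest collagen of liver, averaged 128 FPKM on HFD and 141 FPKM on ND in WT and did not pass (edgeR adjusted p = 0.315). The WT calls took in 5 of 7 tested fibrillar chains, both abundant type IV chains, 3 type VI chains and Col14a1.

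Col1a1 was 1.73, 2.29 and 1.74 FPKM in WT HFD and 0.197, 0.185 and 0.275 FPKM in WT ND livers, a log2 fold change of 3.13 ± 0.69 (edgeR adjusted p = 0.00707). In ob/ob it was 0.534, 3.79 and 0.548 FPKM on HFD and 0.727, 0.610 and 0.674 FPKM on ND. The WT groups lay far apart, and ob/ob HFD mouse 2 held the highest value of all while the other ob/ob livers stayed below 1 FPKM. Col3a1 was 5.81, 7.19 and 6.5 FPKM in WT HFD and 0.959, 1.30 and 0.755 FPKM in WT ND livers, with 2.69 ± 0.45 (edgeR adjusted p = 0.00123), and in ob/ob livers 1.95, 8.70 and 2.90 FPKM on HFD and 3.14, 2.09 and 2.59 FPKM on ND. The same ob/ob mouse stood out.

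Col4a1 was 6.39, 7.65 and 5.17 FPKM in WT HFD and 2.55, 2.52 and 2.02 FPKM in WT ND livers, with 1.44 ± 0.16 (edgeR adjusted p = 0.000121). In ob/ob it was 6.91, 9.72 and 7.84 FPKM on HFD and 8.07, 7.70 and 9.57 FPKM on ND, so the ob/ob diet groups overlapped and only the WT ND livers were low. The interaction was -1.49 ± 0.22 (edgeR adjusted p = 0.00217). Col4a2 had 1.11 ± 0.12 in WT (edgeR adjusted p = 8.94e-05) and an interaction of -1.05 ± 0.16 (edgeR adjusted p = 0.00272), and Col14a1 had 1.34 ± 0.15 (edgeR adjusted p = 0.000121) and -1.30 ± 0.21 (edgeR adjusted p = 0.00381). These 3 interactions were the calls among the tested members, all lower, where 3.96% of all genes were lower and 2.2% higher. The interaction count was 11, all lower, without ob/ob HFD mouse 2.

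On ND, ob/ob livers had 6 members higher and 1 lower than WT, where 19.3% and 17.1% of all genes were. Col4a1 had 1.83 ± 0.16 (edgeR adjusted p = 4.40e-06), Col4a2 1.21 ± 0.12 (edgeR adjusted p = 8.81e-06), Col1a2 1.52, Col3a1 1.37, Col15a1 0.89 and Col14a1 0.81. The Col15a1 call ended without ob/ob ND mouse 2 or WT ND mouse 1. The Col3a1 call ended without ob/ob ND mouse 1 or 3 or WT ND mouse 1 or 3, and the Col1a2 call without ob/ob ND mouse 1 or WT ND mouse 3. On HFD 0 were higher and 4 lower, against 8.61% and 9.85% of all genes. That count was 9 (1 higher, 8 lower) without ob/ob HFD mouse 2, and 2 without ob/ob HFD mouse 3, WT HFD mouse 1 or WT HFD mouse 2.

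Col27a1 was lower in ob/ob livers on both diets. It was 0.677, 0.663 and 0.899 FPKM in ob/ob ND and 1.69, 1.39 and 1.08 FPKM in WT ND livers, with -0.89 ± 0.17 (edgeR adjusted p = 0.00106). Among HFD mice it was 0.447, 0.518 and 0.466 FPKM in ob/ob and 1.44, 1.39 and 1.71 FPKM in WT livers, with -1.66 ± 0.17 (edgeR adjusted p = 8.65e-05). No ob/ob liver reached the lowest WT value, and no single library ended either call. Col18a1, the leading collagen of liver, was 107, 97.3 and 99.1 FPKM in ob/ob HFD and 130, 136 and 118 FPKM in WT HFD livers, with -0.34 ± 0.09 (edgeR adjusted p = 0.0197), a call lost without ob/ob HFD mouse 2 or 3 or WT HFD mouse 1 or 2. Its ob/ob HFD livers all lay below its WT HFD livers.

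**Figure D4:**
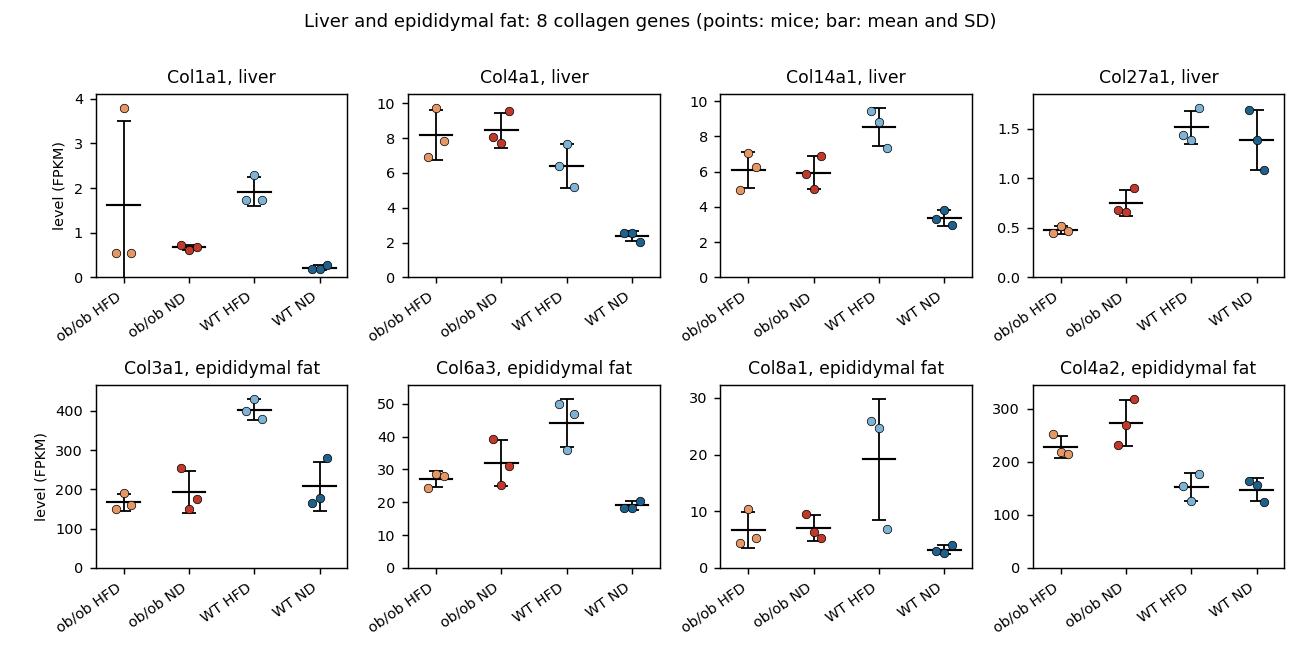
FPKM of 4 collagen genes in liver and 4 in epididymal fat by group; points are mice and bars the mean ± SD of 3, with the lower bar of liver Col1a1 in ob/ob HFD cut off at 0. WT HFD fat lay between 378 and 431 FPKM for Col3a1, above all other libraries, and WT ND liver between 2.02 and 2.55 FPKM for Col4a1, below all others.

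Among liver partners, 8 of 16 tested TGF-beta genes were higher in ob/ob than WT on ND and 5 on HFD, with 0 lower. Over all genes 19.3% were higher and 17.1% lower on ND, and 8.61% and 9.85% on HFD. Tgfbr2, the type II receptor, averaged 9.2 FPKM in ob/ob ND and 2.18 FPKM in WT ND livers (log2 fold change 2.07). Nid1 had 2.5 on ND and 0.83 on HFD. In WT on HFD against ND, Serpinh1 had 1.31 and Pcolce 1.31. Of 22 tested synthesis genes 4 were higher and 3 lower, where 12% of all genes were higher and 9.87% lower. Timp1, an inhibitor of metalloproteases, had 3.44, and the proteases Mmp12 and Mmp13 had 4.32 and 5.99. Their WT ND averages were low, at 0.13 FPKM for Timp1, 0.0912 for Mmp12 and 0.0108 for Mmp13.

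Stellate cell markers, those of the liver's main collagen producers, summed to 132 to 158 FPKM in WT HFD and 74.9 to 97 FPKM in WT ND livers, with 4 of 8 higher on HFD. In ob/ob they summed to 136 to 160 FPKM on HFD and 102 to 116 FPKM on ND. Cholangiocyte markers summed to 33.7 to 42.9 FPKM in WT HFD and 5.67 to 9.85 FPKM in WT ND livers, with 1 of 4 tested higher, and to 20.6 to 235 and 36.8 to 76.4 FPKM in ob/ob livers on HFD and ND. Macrophage markers summed to 133 to 150 FPKM in WT HFD and 38.4 to 145 FPKM in WT ND livers, 4 of 10 being higher. Beside these marker counts, 12% of all genes were higher and 9.87% lower on HFD in WT. No stellate, cholangiocyte or macrophage marker was at 0, and their part in the collagen differences was not tested.

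In skeletal muscle, ob/ob mice on ND had 6 of the 7 collagen classes with called members higher than in WT mice. Of 36 tested members 19 were higher and 3 lower, where 26.6% of all genes were higher and 18.3% lower, and the members' median log2 fold change was 1.22. Fibrillar chains gave 6 higher and 2 lower of 10 tested, and type IV chains 3 higher and 0 lower of 6. Of the 3 tested network and anchoring collagens none was called, and their class sum was 2.94 to 3.52 FPKM in ob/ob ND and 4.76 to 6.05 FPKM in WT ND muscle.

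Col4a1 was 227, 177 and 221 FPKM in ob/ob ND and 20.4, 28.2 and 34.8 FPKM in WT ND muscle, and Col4a2 was 206, 160 and 203 FPKM in ob/ob ND and 14, 16.9 and 22.9 FPKM in WT ND muscle. The lowest ob/ob value lay far above the highest WT value for both genes. Log2 fold changes were 2.90 ± 0.55 (edgeR adjusted p = 0.00391) for Col4a1 and 3.40 ± 0.57 (edgeR adjusted p = 0.00326) for Col4a2. Col18a1, at 32.8, 29.8 and 32.3 FPKM in ob/ob ND and 1.87, 2.31 and 4.02 FPKM in WT ND muscle, had the highest value, 3.53 ± 0.59 (edgeR adjusted p = 0.00326). Col28a1, a Schwann cell collagen, had 3.26 and Col16a1, a fibril-associated chain, 3.16.

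Col3a1 was 137, 142 and 162 FPKM in ob/ob ND and 37.8, 45 and 38.8 FPKM in WT ND muscle, with 1.86 ± 0.44 (edgeR adjusted p = 0.00863). The groups did not overlap. Col1a1 had 1.74, Col6a3 1.59 and Col6a1 1.5. Col24a1, a fibrillar chain of bone, went down: 0.119, 0.113 and 0.158 FPKM in ob/ob ND and 0.727, 1.17 and 0.522 FPKM in WT ND muscle, with -2.62 ± 0.66 (edgeR adjusted p = 0.0111). Col11a2 (-1.71) was also lower, a call lost without any of 8 libraries in turn.

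On HFD 0 muscle members were called between genotypes, with 5 at an unadjusted p below 0.05 and 2 by DESeq2, where 0.0194% of all genes were called. The ob/ob HFD group spanned a wide range: Col4a1 was 54, 310 and 168 FPKM in ob/ob HFD and 88.1, 95 and 56.2 FPKM in WT HFD muscle. Mouse 1 held the lowest and mouse 2 the highest value of the 6. Without ob/ob HFD mouse 1 the HFD count was 16, with 11 higher and 5 lower, and without both mice 1 and 2 it was 5, with 3 higher and 2 lower. Diet in WT also gave 0 calls, with 16 at an unadjusted p below 0.05 and 6 by DESeq2, where 0% of all genes were called; that count was 12, all higher, without ob/ob HFD mouse 1 and 15, all higher, without both. Diet in ob/ob gave 0 calls, with 0 at an unadjusted p below 0.05 and 0 by DESeq2, where 0% of all genes were called. The interaction gave 0 calls, with 12 at an unadjusted p below 0.05 and 0 by DESeq2, where 0% of all genes were called.

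Among the muscle partners on ND 11 of 25 tested synthesis genes were higher and 2 lower, 8 of 14 basement membrane partners were higher and 0 lower, and 6 of 8 receptors were higher and 0 lower, beside the 26.6% higher and 18.3% lower over all genes. Mrc2 averaged 44.1 FPKM in ob/ob ND and 3.16 FPKM in WT ND muscle, a log2 fold change of 3.80. Nid1 had 1.79 and Plod3, a lysyl hydroxylase and glycosyltransferase, 2.32.

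The muscle libraries differed in content. Adipocyte markers summed to 4176 to 6029 FPKM in ob/ob ND and 225 to 1302 FPKM in WT ND muscle, with 8 of 10 higher, and on HFD to 1296 to 8241 FPKM in ob/ob and 2175 to 3765 FPKM in WT. Skeletal muscle markers summed to 19704 to 41895 FPKM in ob/ob ND and 79047 to 163440 FPKM in WT ND muscle, with 1 of 10 lower, and on HFD to 3537 to 83408 FPKM in ob/ob and 60665 to 72356 FPKM in WT. All 10 macrophage markers were higher in ob/ob on ND (862 to 1335 FPKM summed in ob/ob, 141 to 270 FPKM in WT). Fibroblast markers summed to 2911 to 4565 FPKM in ob/ob ND and 1847 to 2240 FPKM in WT ND muscle, with 3 of 10 higher. Beside the marker counts on ND, 26.6% of all genes were higher and 18.3% lower. None of these markers was at 0, and their part in the collagen differences was not tested.

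In the hypothalamus 7 of 42 tested members were higher in ob/ob than WT averaged over both diets and 0 lower, where 7.15% of all genes were higher and 8.36% lower. Col5a1, a fibril-nucleating chain, was 0.490, 0.315 and 0.606 FPKM in ob/ob ND and 0.425, 0.471 and 0.618 FPKM in ob/ob HFD, against 0.372, 0.186 and 0.192 FPKM in WT ND and 0.172, 0.163 and 0.202 FPKM in WT HFD. Only WT ND mouse 1 reached into the ob/ob range. The log2 fold change was 1.2 ± 0.22 (edgeR adjusted p = 0.00329). Col11a2, a cartilage-type fibrillar chain also made in brain, was 2.41, 2.35 and 3.08 FPKM in ob/ob ND and 2.88, 2.41 and 3.05 FPKM in ob/ob HFD, against 1.82, 2.13 and 2.23 FPKM in WT ND and 2.10, 1.73 and 2.08 FPKM in WT HFD. Its genotypes did not overlap, at 0.42 ± 0.10 (edgeR adjusted p = 0.0128).

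Col6a1 had 0.95 ± 0.24 (edgeR adjusted p = 0.0195) and Col6a2 0.82 ± 0.19 (edgeR adjusted p = 0.0115) in hypothalamus, with Col6a1 at 0.567 to 1.91 FPKM in WT ND, its high value being that of mouse 2. Col18a1 had 0.74 ± 0.15 (edgeR adjusted p = 0.00556), and on ND alone 1.05 ± 0.21, a call lost without ob/ob ND mouse 1 or 3 or WT ND mouse 2. Each diet alone gave 1 higher member and 0 lower (Col18a1 on ND, Col5a1 on HFD), where 2.32% and 0.853% of all genes were higher and 2.98% and 1.28% lower. Without WT ND mouse 1 the counts were 15 for the mean of both diets, 5 on ND and 7 on HFD, all higher. The ND count was 0 without ob/ob ND mouse 1 or 3 and 2 without WT ND mouse 2 or 3; the HFD count was 3 without WT ND mouse 2 and 0 without any single mouse of the ob/ob HFD or WT HFD group. Diet gave 0 calls in WT and in ob/ob, with 3 and 1 at an unadjusted p below 0.05, and the interaction 0, with 4; DESeq2 called 0 in each, and 0% of all genes were called. Meninges markers, from a covering rich in collagen, summed to 270 to 447 FPKM in ob/ob ND and 319 to 546 FPKM in ob/ob HFD, against 189 to 462 FPKM in WT ND and 186 to 312 FPKM in WT HFD hypothalamus. None of the 10 was called and none was at 0, and their part was not tested.

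In the hippocampus 1 of 40 tested members was called, on ND. Col16a1 was 2.32, 2.59 and 2.32 FPKM in ob/ob ND and 1.22, 1.36 and 1.70 FPKM in WT ND, a log2 fold change of 0.76 ± 0.14 (edgeR adjusted p = 0.022), where 1.63% of all genes were higher and 1.85% lower. The groups did not overlap, but the call ended without ob/ob ND mouse 1 or 3 or WT ND mouse 1 or 2. Averaged over both diets 0 were called, with 4 at an unadjusted p below 0.05 and 1 by DESeq2, where 13.9% of all genes were called; that count was 1 without ob/ob ND mouse 2, ob/ob HFD mouse 3 or WT ND mouse 3 and 2 without WT HFD mouse 3. On HFD 0 were called, with 3 at an unadjusted p below 0.05 and 0 by DESeq2, where 1.56% of all genes were called. Diet in WT, diet in ob/ob and the interaction gave 0 each, with 2, 4 and 3 at an unadjusted p below 0.05 and 0 by DESeq2, where 0% of all genes were called. Type VI and type IX chains varied widely within groups: Col9a3, of type IX collagen, was 2.13, 11.4 and 20.7 FPKM in ob/ob ND and 13.6, 4.26 and 2.78 FPKM in WT ND. Choroid plexus markers also varied within groups, over a wider range, summing to 21.9 to 6353 FPKM in ob/ob ND and 41.9 to 4836 FPKM in WT ND libraries. None of the 10 was called or at 0, and their part was not tested.

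The balance of fibrillar against basement membrane collagens can be read from their summed FPKM, given here as mean ± SD of 3 mice. In heart the fibrillar sum was 26.2 ± 4.5 and 32.1 ± 4.9 FPKM in ob/ob on ND and HFD, against 57.5 ± 10.1 and 49.8 ± 6.1 FPKM in WT. The basement membrane sum there was 47.9 ± 3.7 and 60.05 ± 9.4 FPKM in ob/ob and 64.9 ± 3.4 and 61.4 ± 8.2 FPKM in WT. The fibrillar sum thus separated the genotypes on both diets and the basement membrane sum on ND only.

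The ratio of the fibrillar to the basement membrane sum was below the WT ratio in each of the 5 tissues outside the brain on ND, by group means. It was 0.544 ± 0.069 in ob/ob ND and 0.891 ± 0.19 in WT ND hearts, 0.728 ± 0.12 and 2.30 ± 1.5 in aortas, and 0.832 ± 0.21 and 1.41 ± 0.56 in fat. The WT ND aortas held 1.47, 4.06 and 1.37, so that the others stood at 1.37 to 1.47 without mouse 2 and still above every ob/ob ND aorta (0.606 to 0.839). In fat the groups overlapped, and WT ND mouse 3 had 2.05 against 1.06 and 1.12 in the other WT ND mice. It was 0.982 ± 0.087 in ob/ob ND and 2.33 ± 0.12 in WT ND livers, and 0.896 ± 0.13 and 2.17 ± 0.34 in muscle. The liver ratio leans on 1 member. Col5a3 alone averaged 5.87 FPKM of a fibrillar sum of 9.51 FPKM in WT ND livers. In ob/ob ND livers it averaged 5.79 FPKM of a sum of 11.8 FPKM. In heart both sums were lower in ob/ob on ND, the fibrillar sum by more. In aorta, liver and muscle the lower ratio went with basement membrane sums of 191 ± 36, 12 ± 1.1 and 401 ± 53 FPKM in ob/ob ND. In WT ND these were 59.8 ± 10.6, 4.08 ± 0.40 and 48 ± 11.2 FPKM. The fibrillar sum was also higher in ob/ob ND muscle, at 358 ± 62 FPKM against 102 ± 7.9 in WT ND, while in aorta and liver it overlapped. On HFD the ratio was 0.536 ± 0.035 in ob/ob and 0.818 ± 0.12 in WT hearts, 0.850 ± 0.14 and 2.02 ± 0.35 in fat, and 1.11 ± 0.38 and 2.06 ± 0.34 in livers. It was 0.888 ± 0.22 in ob/ob HFD and 1.47 ± 0.25 in WT HFD muscle, and 0.699 ± 0.19 and 1.03 ± 0.21 in aortas, where the genotypes overlapped. In hippocampus the ratio was higher in ob/ob on ND, at 0.920 ± 0.068 against 0.758 ± 0.027 in WT without overlap, and on HFD it was 0.772 ± 0.11 and 0.723 ± 0.026 with overlap. In hypothalamus it was 0.627 ± 0.048 in ob/ob ND and 0.622 ± 0.027 in WT ND, and 0.717 ± 0.080 in ob/ob HFD and 0.580 ± 0.074 in WT HFD, with overlap on both diets. These ratios are a description, with no test.

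**Figure D5:**
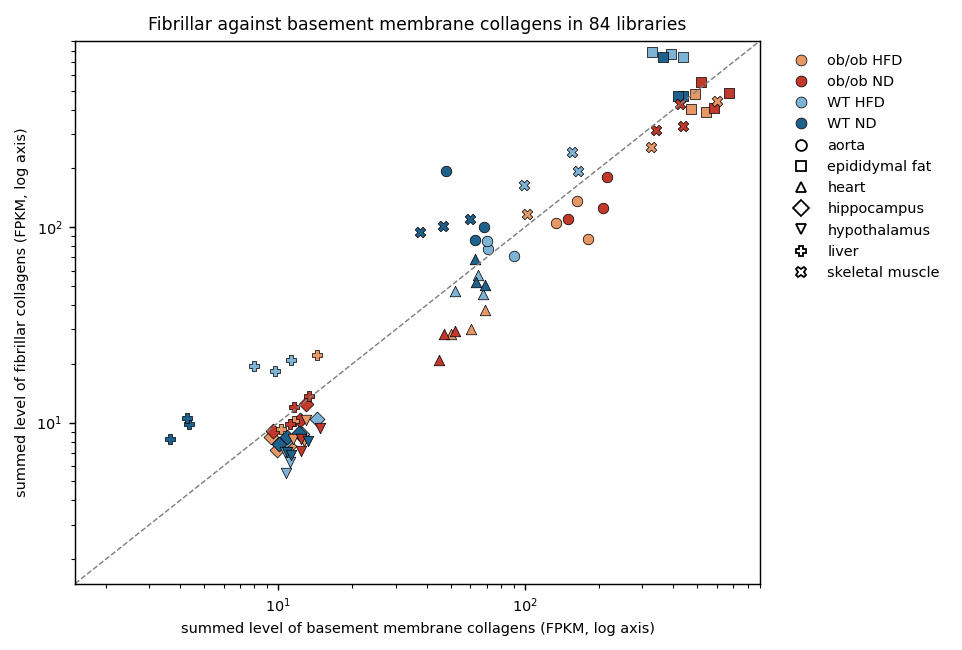
Summed FPKM of the fibrillar (y axis) against the basement membrane collagens (x axis), both on log axes, for 84 libraries; the dashed line marks equal sums. The muscle libraries of ob/ob mice on ND lay near the line, where the ratio averaged 0.896, and those of WT mice on ND above it, at 2.17.

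Col4a1 and Col4a2 chains join in 1 fixed proportion in the protein, whereas the ratio of their RNA levels varied. In fat it was 1.09 to 1.21 in ob/ob ND and 1.15 to 1.23 in ob/ob HFD, against 1.63 to 1.74 in WT ND and 1.43 to 1.56 in WT HFD libraries. In muscle it was 1.08 to 1.10 and 1.07 to 1.18 in ob/ob on ND and HFD, against 1.46 to 1.67 and 1.36 to 1.42 in WT. Neither tissue had an ob/ob library as high as its lowest WT library. Liver ran the other way, with 2.37 to 2.78 in ob/ob ND and 1.52 to 1.81 in WT ND livers, and in hippocampus and hypothalamus the genotypes overlapped. Both genes share 22 exon bases and the strand setting of the counting is not given in the sources used here, but that is a small part of their 7464 and 6619 merged exon bases.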

How the data were processed

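The authors deposited raw read counts per gene for 84 libraries. Trimming by Trimmomatic 0.36, alignment to GRCm38 by HISAT2 2.0.5 and counting by featureCounts 1.5.0-p2 are named in the submitters' processing notes; the file header names featureCounts 1.5.1; the strand setting is not given in the sources used here. The labels' protocols describe heart only. Each tissue was fitted separately (12 libraries, 4 groups of 3 mice) with edgeR 4.0.16 in R 4.3.3: filterByExpr (minimum count 10, total 15), TMM scaling, the quasi-likelihood test and Benjamini-Hochberg adjustment over all genes tested, with 6 contrasts and a threshold of 0.05. The SE is the size of the log2 fold change over the square root of F. FPKM used merged exon length of all isoforms, so genes with long untranslated isoforms read low. Totals were 10499528 to 17040790; on simulated counts with 200 changed genes 57% to 98% of 4-fold and 11% to 83% of 2-fold changes were recovered, least in muscle. Alternatives were DESeq2 1.42.0, its size factors, no filter, a mouse-number block, TPM and leaving out each library. Values are printed for the type I, III, IV and VI chains where a result turned on them, and for up to 4 highest and 4 lowest called members per contrast (average log2 CPM at least 1; 3 and 3 for the interaction), and other lists by smallest p. The members, lists and this rule were chosen with earlier results of these data known. Of 44 members, 13 share exon bases with another gene, at most 6.07%.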

Additional observations from a re-analysis of the deposited data

Results flagged for a closer look

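A test of the interaction, the HFD minus ND difference in ob/ob minus that in WT, placed the diet effect of 11 collagen genes apart between the genotypes (edgeR, adjusted p below 0.05). They were 8 of 32 tested members in fat, 1 higher and 7 lower, where 19.4% of all genes were higher and 20.7% lower. Over both directions the share called in fat did not exceed that of all genes. The other 3 were of 20 tested in liver, all lower, where 2.2% of all genes were higher and 3.96% lower. In epididymal fat the interaction in log2 units was -1.46 for Col6a3, -2.66 for Col8a1, -1.16 for Col3a1, -0.83 for Col5a2, -2.77 for Col8a2, -1.06 for Col12a1, -1.04 for Col27a1 and 1.57 for Col23a1. In liver it was -1.49 for Col4a1, -1.05 for Col4a2 and -1.30 for Col14a1. The Col6a3, Col8a1, Col3a1 and all 3 liver calls held without any single library. The calls for Col5a2, Col8a2, Col12a1, Col27a1 and Col23a1 each ended without 4 to 7 of the 12 libraries in turn.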

How the results depend on the processing

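Of 236 called member results none reversed under DESeq2, its size factors, no filter, the block or any library left out, and 388 of 2832 refits without 1 library lost the call, against 7 of 233 with DESeq2, 7 without the filter, 3 with DESeq2's size factors and 18 with a replicate block. Mouse numbers did not pair the samples: in each tissue 2 to 6 of 18 same-number pairs had a correlation over 0.1. The block moved 1 count by over 1.5 times, hippocampus on ND, to 0.

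With DESeq2, called members numbered 10 for diet in WT aorta, 4 for the aortic interaction, 1 for diet in ob/ob heart, 1 for genotype over both diets in hippocampus, 2 on HFD in hypothalamus, 1 for diet in ob/ob liver, and in muscle 2 on HFD and 6 for diet in WT. Without the filter they numbered 15 and 8 (aorta, diet in WT and interaction), 1, 2 and 2 (heart, diet in WT, diet in ob/ob and interaction), 11, 5 and 7 (hypothalamus, both diets, ND and HFD), 12, 8, 8 and 11 (liver, both diets, HFD, diet in ob/ob and interaction) and 2 (muscle, diet in WT). Without muscle of ob/ob HFD mice 1 and 2, chosen after seeing the data, they numbered 5 on HFD and 15 for diet in WT.

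Leaving out each library gave 5 to 11 on HFD and 0 to 10 for diet in WT in aorta; 8 to 16 on ND, 1 to 12 on HFD, 12 to 20 for diet in WT and 3 to 13 for the interaction in fat; 4 to 13 on HFD in heart; 0 to 2 over both diets and 0 to 1 on ND in hippocampus; 5 to 15 over both diets, 0 to 5 on ND and 0 to 7 on HFD in hypothalamus; 2 to 9 on HFD, 0 to 1 for diet in ob/ob and 3 to 11 for the interaction in liver; and 0 to 16 on HFD and 0 to 12 for diet in WT in muscle.

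Summed class levels, as log2 ratios, moved by more than the spread when the member with the highest level was left out. Main values are in parentheses. In fat the fibrillar sum was then -0.51 (-0.86) in ob/ob over WT on HFD and 0.048 (0.45) for diet in WT. It was -0.83 (-1.14) on ND in heart. In hippocampus it was 0.57 (0.35) on ND and 0.29 (0.12) for diet in WT, and in liver 0.73 (0.32) and 1.89 (1.04). The basement membrane sum was then 0.80 (0.54) in fat, -0.33 (-0.44) in heart and 1.05 (1.56) in liver on ND, and 0.92 (1.24) for diet in WT liver. In TPM the basement membrane sum on ND was -0.55 (-0.44) in heart, 1.83 (1.56) in liver and 3.86 (3.06) in muscle. The fibrillar sum in TPM was 0.59 (0.32) on ND and 1.23 (1.04) for diet in WT in liver, and 2.61 (1.81) and 1.26 (0.97) in muscle. Without single libraries the fibrillar sum of liver on HFD ran from -1.01 to -0.27.

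In TPM the log2 level against the mean of 7 tissues was, for Col1a1, -0.13 in heart and -3.12 in hypothalamus; for Col1a2, -0.27 in heart and -2.21 in hippocampus; for Col3a1, 0.42 and -4.46 there. For Col4a1 it was 1.10 in aorta, 3.55 in fat, -0.20 in heart, -2.32 in hippocampus and -2.42 in hypothalamus. For Col4a2 it was 0.90 in aorta, -0.45 in heart, -1.72 in hippocampus, -1.39 in hypothalamus and -3.14 in liver. For Col6a1 it was 3.86 in fat and -0.15 in heart, and for Col6a3 0.63 in aorta, -0.63 in heart and -2.16 in hypothalamus. The cause of these shifts was not tested.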
